A study of Mus musculus with 4 samples.

Results

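The genes described here encode 4 families of enzymes that oxidize, hydrolyze or dehydrogenate foreign and endogenous small molecules: the cytochromes P450 (Cyp), the flavin-containing monooxygenases (Fmo), the carboxylesterases (Ces) and the aldehyde dehydrogenases (Aldh). They were chosen by symbol alone, as every measured gene whose name starts with Cyp, Fmo, Ces or Aldh followed by a digit. This rule gave 121 of the 19465 genes in the files. They comprised 58 P450s of families 1 to 4, 19 other P450s, 7 Fmo genes, 17 carboxylesterases, 4 retinaldehyde dehydrogenases (Aldh1a1, Aldh1a2, Aldh1a3 and Aldh1a7) and 16 other aldehyde dehydrogenases. Each gene was read by a pair of short probes that hybridize to fixed RNA and are counted on the slide by unique molecular identifiers (UMIs).

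The sections came from 2 BALB/c mice, called mouse A and mouse B, each given 100000 cells of the 4T1 line into the mammary fat pad at 8 weeks of age. The primary tumor (PT) and the lung of each mouse were taken on day 28, so each tissue had n = 2 sections, 4 µm thick, and PT and lung are matched by animal. 4T1, derived from a BALB/c mammary carcinoma, forms lung metastases from the fat pad. All 4 sections are from tumor-bearing mice, and no lung or mammary tissue free of 4T1 cells was analysed here. The tests below compare sums over sections, so their p-values measure the spread between these 2 mice only. Of 9445 spots under tissue, 9339 with over 200 detected genes were kept. They held 11122812 UMIs in lung A, 30240176 in lung B, 13532158 in PT A and 10890154 in PT B. Levels are given as UMIs of the gene per 1000000 UMIs of the section (CPM). Several cells, often of unlike types, lie under each spot, so a lower level can mean fewer cells of a type or less RNA per cell, which cannot be told apart.

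Most P450s of families 1 to 4 act on drugs, pollutants and fatty acids in the endoplasmic reticulum, where they take electrons from P450 reductase, and the remaining P450s make or break down sterols, bile acids, steroids and vitamins. Fmo enzymes oxidize soft nucleophiles such as amines and sulfides, and carboxylesterases cleave esters and amides, including lipid esters and prodrugs. Aldehyde dehydrogenases remove aldehydes, and the retinaldehyde dehydrogenases among them make retinoic acid. In the mouse lung, the club cells of the conducting airway are the best known site of P450 metabolism, and Cyp2f2 of these cells activates naphthalene to a toxic epoxide.

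The starts of 3 genes are shown because the results below turn on them: Cyp2f2 and Cyp2s1, which lie in 1 gene cluster on chromosome 7 and were both higher in airway-rich lung spots, and Cyp2c55 on chromosome 19, which went the other way. Each sequence runs from 250 bases before to 50 bases after the RefSeq start (GRCm38.p6, the build of the files), 5′ to 3′ on the strand of the gene, and capitals mark a TATA box (TATAAA, on the strand of the gene).
Cyp2f2 (chr7:27119705-27120004, plus strand): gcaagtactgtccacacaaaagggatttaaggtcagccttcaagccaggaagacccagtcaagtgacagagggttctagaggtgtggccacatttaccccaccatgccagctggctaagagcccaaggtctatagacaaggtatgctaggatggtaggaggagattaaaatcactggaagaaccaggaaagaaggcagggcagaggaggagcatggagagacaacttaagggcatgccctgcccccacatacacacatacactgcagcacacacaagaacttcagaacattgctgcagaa
Cyp2s1 (chr7:25816476-25816775, minus strand): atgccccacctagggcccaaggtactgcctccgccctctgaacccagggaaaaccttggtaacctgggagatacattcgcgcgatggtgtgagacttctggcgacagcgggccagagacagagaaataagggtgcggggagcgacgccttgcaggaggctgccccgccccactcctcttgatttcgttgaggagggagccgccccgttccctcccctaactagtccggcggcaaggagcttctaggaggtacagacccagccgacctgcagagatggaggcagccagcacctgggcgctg
Cyp2c55 (chr19:39006769-39007068, plus strand): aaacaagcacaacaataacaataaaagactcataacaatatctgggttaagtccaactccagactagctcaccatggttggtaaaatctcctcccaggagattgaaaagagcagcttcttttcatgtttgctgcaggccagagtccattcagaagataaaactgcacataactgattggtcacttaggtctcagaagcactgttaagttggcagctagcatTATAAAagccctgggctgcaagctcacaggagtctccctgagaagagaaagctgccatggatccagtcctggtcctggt
The TATAAA of Cyp2c55 starts at position -29 relative to the start, while these letters are in neither of the other windows. They were found in 8.32% of all 32851 promoter windows of this length and in 18 of the 101 windows of the genes studied here, of which 90 had an entry. The windows of Cyp2f2 and Cyp2s1 also held no match on either strand to TGTTTAC, core letters of FOXA sites, which 3.65% of all windows hold. Nor did they match CTTGAG of NKX2-1 sites (15.9% of all windows) or GCGTG of AHR-ARNT sites (32.4%). Among the 15 windows of genes higher in airway-rich spots, 0 held the FOXA letters, 1 those of NKX2-1, 2 those of AHR-ARNT and 3 the TATA box. These matches are a description of the letters and say nothing of binding.

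Before the levels are read, 1 section needs a caution. The 1191 olfactory, vomeronasal and trace amine receptor genes, which lung and mammary tumor are not known to use, had a median of 0.18 CPM in lung A, 0.13 in lung B, 0.59 in PT A and 6.61 in PT B. Their 99th percentile, used below as the level a gene has to pass, was 0.81, 0.70, 2.88 and 32.7 CPM. Per spot, the receptor genes of PT B together gave 41.0, 48.3, 44.2 and 38.2 UMIs in the spots of the lowest to the highest quartile of depth, while the depth itself rose from a mean of 1188 to 13268 UMIs. The 64 genes described below as above the level in no section followed the same course, with 1.74, 1.98, 1.77 and 1.53 UMIs per spot. The 9 genes above the level in all sections rose with depth, from 0.81 to 11.0 UMIs per spot, and kept a share of 0.0680% to 0.0832% of the UMIs. A CPM of about 6 in PT B is therefore the level of receptor genes in that section. The marker genes matched the tissue labels, since the alveolar type 2 markers summed to 12051 and 7082 CPM in the lungs against 139 and 138 CPM in the PTs. The 4T1 markers summed to 162 CPM in lung A and 1337 CPM in lung B, against 4698 and 5639 CPM in PT A and PT B.

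**Figure D1:**
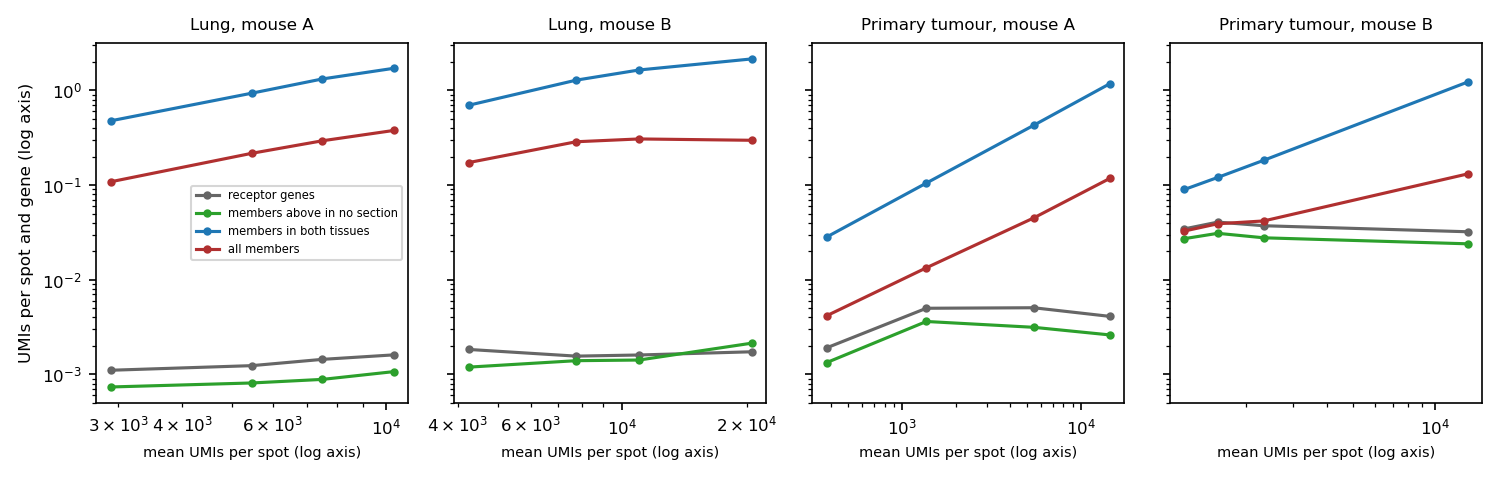
UMIs per spot and gene (vertical, log axis) against mean UMIs per spot (horizontal, log axis) in the quartiles of spots by depth of each section, for the 1191 receptor genes, the 64 members above the level in no section, the 9 members above it in all sections and all 121 members. In PT B the receptor genes and the 64 members run flat at all depths, and the 9 members rise with depth.

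The whole group took a larger part of the lung RNA than of the PT RNA. Its summed level was 4592 CPM in lung A, 2955 in lung B, 1001 in PT A and 1611 in PT B. With the median receptor level taken off each gene, the sums were 4576, 2942, 942 and 934 CPM, so PT A and PT B came to nearly the same value. Of the 121 genes, 56 passed the receptor level in lung A, 54 in lung B, 25 in PT A and 9 in PT B. In both lungs but in neither PT, 28 genes passed it, 9 passed it in all 4 sections, 0 in both PTs alone, 20 in some other combination and 64 in no section. The share of all genes in these classes is not given, so the counts are not read as particular to these families. A gene with the same low level in lung and PT would not pass the level of PT B, and only 6 of the 28 lung genes, among them Aldh1a1, Ces1d, Cyp2f2, Cyp4b1 and Fmo1, exceeded 32.7 CPM in both lungs. By the lower level of PT A, 16 of the 28 could have been seen. The count rests on the level chosen: with 10 CPM for every section, 11 genes were in the lungs alone and 12 in all sections.

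Cyp2f2, Fmo2, Cyp4b1 and Aldh1a1, known for airway, alveolar or vascular cells, were high in lung. Cyp2f2 had 1116 CPM in lung A, 521 in lung B, 0.52 in PT A and 6.80 in PT B. Fmo2, the main Fmo of lung, had 504, 314, 6.21 and 8.17 CPM in the same order, and is not among the 28, since its level in PT A passed that of the receptor genes. Cyp4b1, a P450 that activates the lung toxin ipomeanol, had 382, 216, 1.63 and 8.08 CPM. For all of them the lungs and the PTs lay far apart, and the PT B values were near the receptor median. So was the PT A value of Cyp2f2, on 7 UMIs, and a fold change over such a value depends on the background. Aldh1a1, which oxidizes retinaldehyde, had 299, 144, 0.52 and 8.17 CPM. Together these 4 genes gave 2301 and 1195 CPM in the lungs and 8.87 and 31.2 CPM in the PTs. Lung A was above lung B for each of them. At least 1 UMI of Cyp2f2 was seen in 75.8% of the spots of lung A and 55.5% of lung B (median depth 6555 and 9175 UMIs), against 0.281% in PT A and 3.04% in PT B (2931 and 1820 UMIs).

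Sums over sections were tested with edgeR (quasi-likelihood test, 15267 genes tested, 66 of them in these families). Of the 66, 12 were higher in lung and 0 were lower, where 6.31% of all genes tested were higher and 1.15% lower. Ces1d had 0 UMIs in both PTs, and Cyp2f2, Aldh1a1 and Aldh1a7 had 7, 7 and 10 UMIs in PT A. Such genes pass the filter on low counts mainly or only through the lungs, so nothing is read from the count of 12. Without the filter, 14 of 119 members were higher, where 1666 of 19314 genes were. The count of 0 lower stands beside 6 lower genes at an unadjusted p under 0.05 and 7 called lower by DESeq2, which called 7.91% of all genes lower. The 7 were Aldh8a1, Ces3b, Cyp2b13, Cyp2b23, Cyp2c29, Cyp2c69 and Cyp4a30b. They passed the receptor level in no section and were highest in PT B, so no lower level in lung is read from them. Of the 12, 3 were Fmo genes, 4 P450s of families 1 to 4, 2 retinaldehyde dehydrogenases, 2 other aldehyde dehydrogenases and 1 a carboxylesterase, while 0 of 10 tested P450s outside families 1 to 4 were called. Cyp2f2 was higher by a log2 fold change of 8.22, given without SE or p-value because of how it passed the filter. Cyp4b1 was higher by 6.33 ± 0.79 (SE, edgeR adjusted p = 0.00435) and Fmo2 by 6.17 ± 0.54 (edgeR adjusted p = 0.00131). Subtracting the median receptor level from each sum, an alternative chosen after seeing the data, left 4 of the 12 called (Ces1d, Cyp2f2, Cyp4b1 and Fmo2), where 0.656% of all genes were higher. Higher calls over all genes fell from 963 to 89 there. Members higher at an unadjusted p under 0.05 went from 15 of 66 to 20 of 52. Total UMIs in place of TMM scaling left the same 4 called (1.85% of all genes higher). That scaling moved the median log2 change of all genes from 0.00 to -0.31.

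Ces1d, a carboxylesterase that hydrolyzes lipid esters and prodrugs, had 1196 UMIs (108 CPM) in lung A and 1883 UMIs (62.3 CPM) in lung B, and 0 UMIs in either PT. Set against a floor of 3 UMIs per PT section, its lung level was 485-fold that floor in mouse A and 226-fold in mouse B. In PT B only 14 of the 1191 receptor genes had 0 UMIs, and their median was 72 UMIs. A count of 0 is thus unusual in that section, and whether Ces1d could be counted in the PTs was not tested. These folds are therefore not read as a measured difference. Both lung values lay above 32.7 CPM, the receptor level of PT B. Ces1d passed the filter on low counts only through the lungs, so it is described by these counts and not by its test. It was unlike most other members, since 118 of the 121 had at least 1 UMI in PT B. Cyp3a59 and Cyp11b1, the other 2 members at 0 there, had 0 UMIs in all 4 sections.

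Other Fmo and P450 genes were higher in lung at lower levels. Fmo1 had 140 CPM in lung A, 38.5 in lung B, 1.48 in PT A and 9.09 in PT B, a log2 fold change of 4.50 ± 0.90 (edgeR adjusted p = 0.0191). Both of its lung values exceeded both PT values, with the smallest gap between lung B and PT B. Cyp2s1, an epithelial P450, had 75.1, 29.9, 1.77 and 6.06 CPM (4.14 ± 0.71, edgeR adjusted p = 0.0108). Cyp2d22, of the subfamily that acts on many amine drugs, had 39.2, 23.6, 2.59 and 7.07 CPM (3.06 ± 0.59, edgeR adjusted p = 0.0166). Fmo5, an unusual Fmo that acts as a Baeyer-Villiger oxidase, was at 28.2, 14.2, 1.18 and 6.52 CPM and did not pass the test (2.85 ± 0.80, edgeR adjusted p = 0.0661). It was called with the mouse as a block, where 14 members were higher and 1, Cyp2c55, was lower, against 9.17% and 2.73% of all genes.

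Among the retinaldehyde dehydrogenases, Aldh1a1 was higher in lung by a log2 fold change of 6.08. Aldh1a7, its close relative on the same stretch of chromosome 19, had 54.2, 27.8, 0.74 and 7.25 CPM (log2 fold change 3.76). Aldh1a1 and Aldh1a7 are given without SE or p-value, since they passed the filter on low counts mainly or only through the lungs. Aldh1a2, the enzyme of mesenchymal retinoic acid synthesis, had 3.24 CPM in lung A, 20.6 in lung B, 0.96 in PT A and 6.15 in PT B. It was the only member of the 4 with a lower value in lung A than in lung B, and its groups overlapped. Aldh1a3 stayed low, at 2.79, 2.55, 0.89 and 3.95 CPM. Cyp26b1, which breaks retinoic acid down, had 3.78, 12.6, 5.62 and 6.52 CPM with overlapping groups. Lrat, which esterifies retinol, and Dhrs3, which reduces retinaldehyde, were among the retinoid partner genes higher in lung, and Crabp1, a retinoic acid binding protein, was lower (0.18, 0.07, 29.0 and 4.22 CPM).

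**Figure D2:**
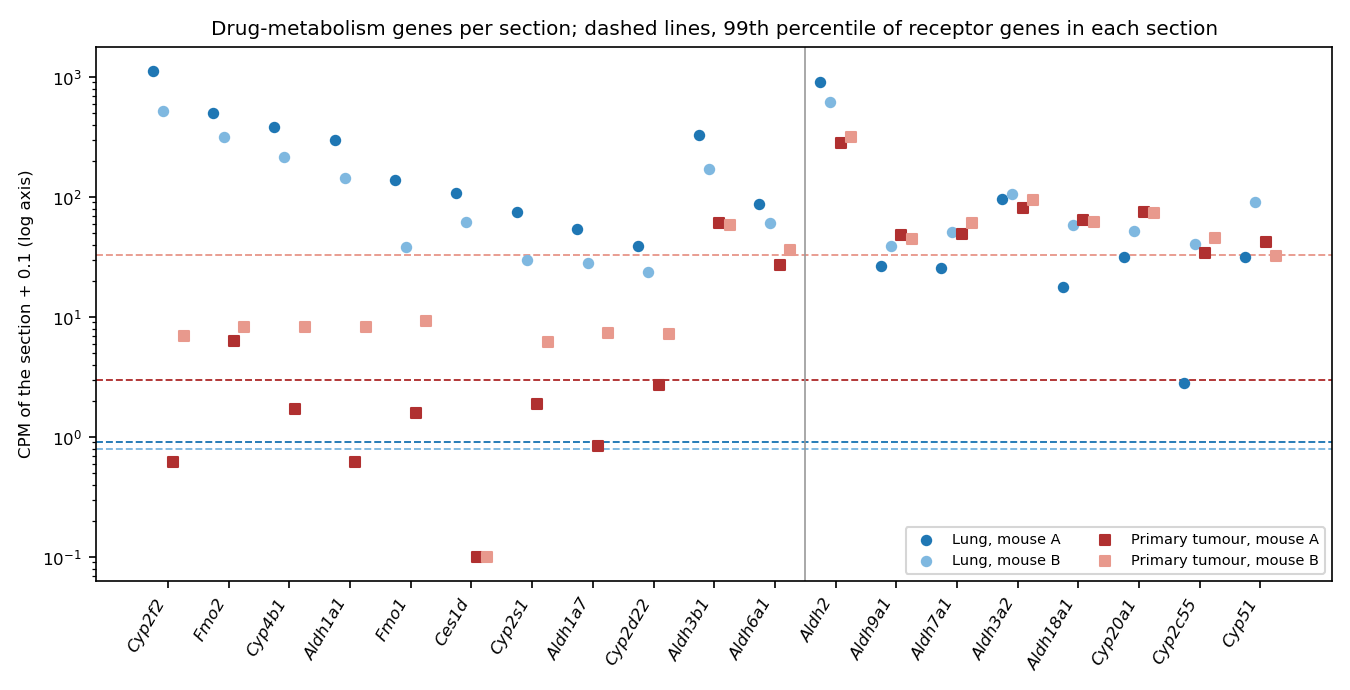
CPM of the section with 0.1 added (log axis) for 19 members, with a point per section (circles, lungs; squares, PTs) and a dashed line at the 99th percentile of receptor genes of each section. Left of the grey line are 11 of the 12 members called higher in lung, right of it 8 that were not called. Of these 8, Aldh2 and, by a small margin, Aldh3a2 were higher in both lungs than in both PTs. Aldh9a1, Aldh18a1 and Cyp20a1 were lower in both lungs than in both PTs.

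Of the members that persisted in the PT, 9 passed the receptor level in all 4 sections, and 7 of these were aldehyde dehydrogenases. That make-up rests on the high level of PT B. In PT A 25 members passed, among them Cyp51, Cyp39a1, Cyp4v3, Cyp1b1 and Cyp2j6. With 10 CPM for every section, the 12 members in all sections included Cyp20a1, Cyp39a1, Cyp4f13, Cyp4v3 and Cyp51. Aldh2, which clears acetaldehyde, Aldh3a2, which oxidizes fatty aldehydes, Aldh3b1, Aldh6a1 of valine breakdown, Aldh7a1 of lysine breakdown, Aldh9a1 of carnitine synthesis and Aldh18a1 of proline synthesis passed the receptor level in all 4 sections. The other 2 were Cyp20a1, a P450 without a settled substrate, and Cyp2c55. Their summed level was 1524 and 1193 CPM in the lungs and 719 and 793 CPM in the PTs. Aldh2 gave 59.8% and 51.5% of the UMIs of these 9 genes in lung A and B, and 38.9% and 40.1% in PT A and B.

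Aldh2 had 911 CPM in lung A, 614 in lung B, 280 in PT A and 318 in PT B, and both lungs lay above both PTs, but it did not pass the test (log2 fold change 1.68 ± 0.46, edgeR adjusted p = 0.0609). It was called with the mouse as a block and by DESeq2. Aldh3b1, which oxidizes medium and long chain aldehydes, had 326, 172, 60.2 and 57.8 CPM (2.42 ± 0.47, edgeR adjusted p = 0.0168). Aldh6a1 had 86.6, 60.6, 27.2 and 35.9 CPM (1.56 ± 0.40, edgeR adjusted p = 0.0456). These 2 genes were thus higher in lung and still above the receptor level in both PTs, and the call of Aldh6a1 was lost without lung A, PT A or PT B. Aldh3a2 was nearly level, with 96.2, 105, 81.0 and 94.9 CPM. Aldh18a1 had 17.5, 58.7, 64.5 and 61.4 CPM, Cyp20a1 had 31.7, 51.8, 75.4 and 73.9 CPM, Aldh7a1 had 25.3, 51.3, 48.9 and 61.2 CPM and Aldh9a1 had 26.6, 38.9, 48.2 and 44.9 CPM. In these 4 genes lung A was the lowest section. Both lungs lay below both PTs for Aldh18a1, Cyp20a1 and Aldh9a1, while the tissues overlapped for Aldh7a1. None of the 4 passed the test in either direction.

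Cyp2c55 is a P450 of fatty acid oxidation known from the intestine. It had 2.70 CPM in lung A, 40.8 in lung B, 33.9 in PT A and 45.3 in PT B. Lung A, the section with the least 4T1 marker RNA among the 4, was far below the other 3 sections. Cyp51, the sterol demethylase of cholesterol synthesis, had 31.6, 91.2, 41.8 and 32.0 CPM, and Cyp39a1, an oxysterol hydroxylase, had 20.2, 23.0, 30.4 and 27.7 CPM. Cyp1b1, a P450 of estrogens and polycyclic hydrocarbons, had 7.37, 18.7, 23.7 and 10.2 CPM. Cyp4f13 and Cyp4v3 lay between 13.1 and 25.9 CPM in all sections, with lung and PT overlapping. Cyp2j6 had 8.18 and 14.1 CPM in the lungs against 17.2 and 22.0 CPM in the PTs. For Cyp2j6 and Cyp39a1 both lungs thus lay below both PTs. None of these members passed the test.

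The remaining 64 members stayed at the receptor level in every section. They included 36 of the 58 P450s of families 1 to 4 and 13 of the 17 carboxylesterases, among them the liver genes Cyp1a2, Cyp2c29, Cyp3a11, Cyp4a10, Ces3a and Ces3b. Their highest UMI number was 9 in lung A and 21 in lung B, and their median CPM was 0.09, 0.13, 0.52 and 5.88 in lung A, lung B, PT A and PT B. The hepatocyte markers summed to 3.33 and 1.39 CPM in the lungs. Cyp19a1, the aromatase, had 0 and 5 UMIs in the lungs and 11 and 55 UMIs in the PTs (0.81 and 5.05 CPM), within the range of receptor genes. Aldh1l2, the mitochondrial folate enzyme, had 0.27 and 0.99 CPM in the lungs and 0.67 and 3.03 CPM in the PTs, so it passed the level of lung B alone. Cyp1a1, the classical target of the aryl hydrocarbon receptor, passed the level of both lungs with no more than 19 and 24 UMIs in the lungs (1.71 and 0.79 CPM). With PT A left out, so that PT B alone stood for the PT, 60 of 117 tested members were lower in lung, where 27.3% of all genes were. By sequence, 29 of the 121 genes share over 10% of their 50-base windows with another gene of these families, so that Cyp2a4 (38.0%, mostly Cyp2a5) and Ces3a (30.9%, mostly Ces3b) are uncertain where a probe lies in a shared stretch. Cyp4b1 shares 10.3% with a pseudogene.

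Within the lung, the members divided by where in the tissue they lay. Spots were scored by fixed cell type markers that hold no member (mean of log2 of CPM plus 1 over the markers), and the top 10% of a section was called rich and the lower part up to the median poor. Airway markers (Scgb3a2, Foxj1 and 6 more) summed to 3302 CPM in 170 rich spots and 169 CPM in 850 poor spots of lung A, and to 3253 CPM in 278 rich and 15.3 CPM in 1390 poor spots of lung B. UMIs were summed per class and mouse and fitted with the mouse as a block. Of 51 members tested, 17 were higher in airway-rich spots and 1 was lower, where 8.59% of the 12694 genes tested were higher and 0.323% lower. Among the 17, Fmo6, Cyp2a4, Cyp4f15, Cyp2e1, Aldh3a1, Ces1e and Ces1f passed the filter on low counts only through airway-rich spots, where they are high. Nothing is therefore read from the count of 17. These 7 are described by their values or log2 fold changes alone, without SE or p-value. Without the filter 107 members were tested and the same 17 were called higher, where 5.4% of all genes were. Without the block 0 members were called, with 18 at an unadjusted p under 0.05. The DESeq2 fit called 17 higher and 0 lower, where 6.58% of all genes were higher.

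Cyp2f2 had 5043 CPM in airway-rich and 294 CPM in airway-poor spots of lung A, and 4741 and 51.1 CPM in lung B, a log2 fold change of 5.21 ± 0.89 (edgeR adjusted p = 1.53e-07). Airway-rich spots, 10% of each section, held 53.6% of the Cyp2f2 UMIs of lung A and 68.3% of those of lung B. Fmo6, a member of the Fmo cluster on chromosome 1, passed the receptor level in no whole section. It had 7 and 13 UMIs in airway-rich and 0 and 2 UMIs in airway-poor spots (log2 fold change 5.78). Its estimate rests on those few UMIs.

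The other members called in airway-rich spots are listed here by family. Among P450s, Cyp2s1 had 329 against 22.3 CPM in lung A and 235 against 7.11 CPM in lung B (4.36 ± 0.42, edgeR adjusted p = 6.03e-23). Cyp2a4, a steroid hydroxylase, had 8.34 against 0.56 and 11.4 against 0.11 CPM (log2 fold change 5.23). Cyp4f15 had a log2 fold change of 4.27 and Cyp2e1, the ethanol-inducible P450, one of 3.08, and Cyp1b1 rose by 1.79 ± 0.49. Of the dehydrogenases, Aldh1a1 had 1008 against 169 and 901 against 48.5 CPM (3.29 ± 0.53, edgeR adjusted p = 1.41e-08) and Aldh1a7 had 198 against 22.1 and 198 against 8.53 CPM (3.75 ± 0.40, edgeR adjusted p = 8.06e-19). Aldh3a1, abundant in cornea, had 16.7 against 1.48 and 22.0 against 0.66 CPM (log2 fold change 4.26). The folate enzyme Aldh1l1 and Aldh6a1 were higher as well. Of the 17 carboxylesterases 3 passed the filter. Ces1d rose by 2.43 ± 0.39. The log2 fold change was 3.69 for Ces1e and 3.72 for Ces1f, the last on 9 and 8 UMIs in airway-rich spots. Cyp4b1 rose by 1.47 ± 0.47 (edgeR adjusted p = 0.0239), and only 16.9% and 23.6% of its UMIs lay in airway-rich spots.

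**Figure D3:**
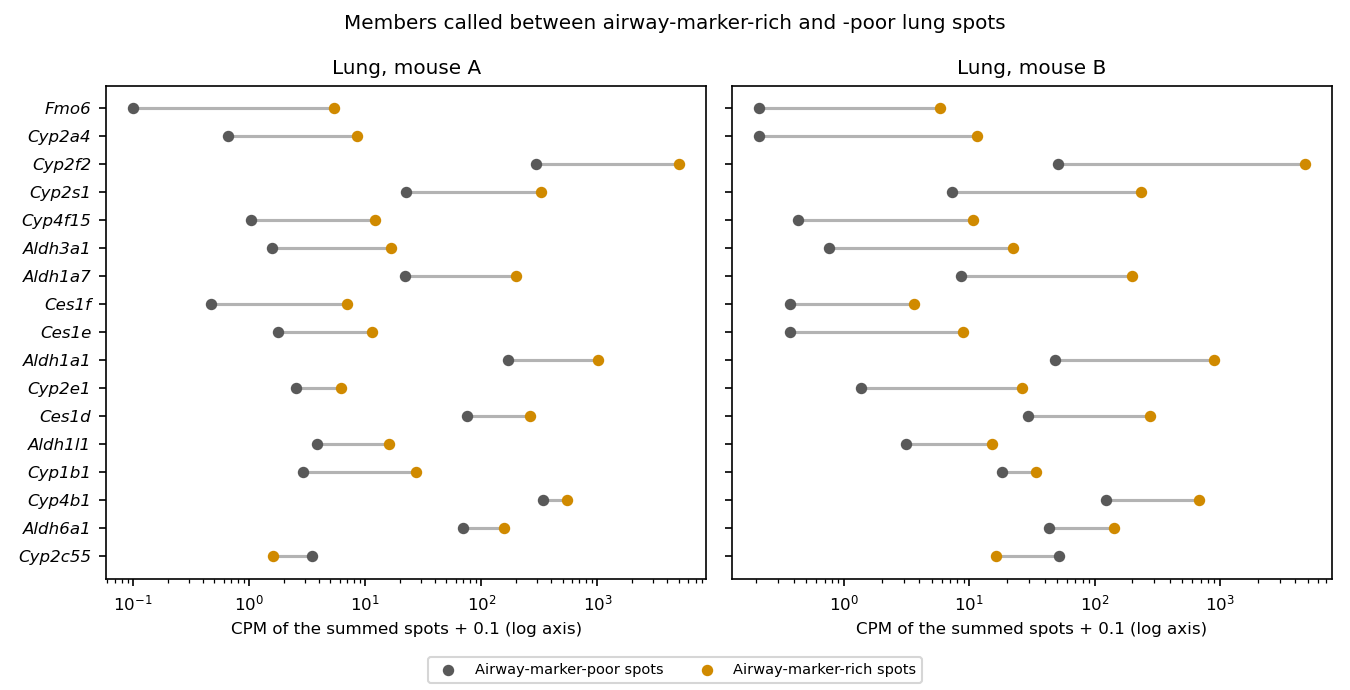
CPM with 0.1 added (log axis) of 17 of the 18 called members in airway-marker-poor (grey) and airway-marker-rich (orange) spots of each lung, with a line joining the 2 sums. Those from Fmo6 to Aldh6a1 lie higher in airway-rich spots of both mice and Cyp2c55 lies lower in both.

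Some of these genes are neighbors in the genome (GENCODE, GRCm38). Cyp2s1, Cyp2a4 and Cyp2f2 lie on chromosome 7, between 25802475 and 27158668, with Cyp2b13, Cyp2b23, Cyp2b19 and Cyp2t4, which were not tested in airway-rich spots and stayed at the receptor level in all sections. Ces1d, Ces1e and Ces1f lie on chromosome 8, between 93020214 and 93379725, with 4 other Ces1 genes that were not tested either. Since the filter took part in which neighbors were tested, nothing is read from these positions. Aldh1a1 and Aldh1a7 on chromosome 19 (20492715 to 20727562) were both higher. Fmo1 and Fmo2, which lie near Fmo6 on chromosome 1, were not called.

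Spots rich in airway markers also differed in other cells. In lung B their 4T1 markers summed to 673 CPM against 1702 CPM in airway-poor spots, whereas in lung A the values were 230 and 157 CPM. Restricted to lung spots at or below the median 4T1 score, an alternative added after seeing the data, 14 of 41 members were higher and 1 was lower, where 10.6% of all genes were higher and 6.79% lower. There Cyp2f2, Cyp2s1, Aldh1a1 and Ces1d kept their call. In all, 13 of the 17 higher members did. These include Cyp2a4, Cyp4f15, Aldh3a1 and Ces1e, which passed the filter only through airway-rich spots. Nothing is therefore read from the counts of 14 and 13. Aldh1l1 (1.21, edgeR adjusted p = 0.0843) and Cyp2c55 (-1.22, edgeR adjusted p = 0.193) lost their call, and Ces1f, Cyp2e1 and Fmo6 did not pass the filter on low counts. The partner genes of drug metabolism were tested in the same way. Of 48 tested, 15 were higher in airway-rich spots and 0 lower, where 8.59% of all genes were higher and 0.323% lower. Nr1i2, among the 15, had 0.81 and 0.50 CPM in the whole lungs and was not tested in the alveolar type 2 or 4T1 comparisons. Such a gene can pass the filter through the airway-rich spots alone, so nothing is read from the count of 15. Called partner genes included Sult1d1 (6.29), Aox3 (3.32), Ephx1 (2.26) and Alas1 (2.06), where the values are log2 fold changes. Between lung and PT, 11 of 54 partner genes were higher in lung and 1 was lower. Of all genes tested there, 6.31% were higher and 1.15% lower. Among the 11 were Gstm1 (4.30), Adh1 (4.44) and Alas1 (2.79), the rate-limiting enzyme of heme synthesis. Adh1 had 0.59 CPM in PT A, and Gsta3, also among the 11, had 0.22 CPM. Such genes pass the filter mainly or only through the lungs, so nothing is read from the count of 11. Por, the electron donor of all microsomal P450s, had 356 and 254 CPM in the lungs and 174 and 190 CPM in the PTs and was called in neither comparison, and Cyb5a, another donor, was called in both (1.84 and 1.36).

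Fmo2 and Fmo1 were not called in airway-rich spots. Of the Fmo2 UMIs, 12.6% and 17.2% lay in airway-rich spots, where Fmo2 had 537 against 490 CPM in lung A and 720 against 188 CPM in lung B. Fmo1 had 120 against 140 CPM in lung A and 70.0 against 25.2 CPM in lung B there. In spots rich in endothelial markers Fmo2 had 596 against 452 CPM in lung A and 565 against 192 CPM in lung B, and Fmo1 had 165 against 118 and 73.6 against 22.9 CPM. Spots rich in alveolar type 1 markers gave 571 against 460 and 536 against 188 CPM for Fmo2. In both classes and both mice the rich spots were higher, and the ratio was larger in lung B. The endothelium-poor spots of lung B held 1806 CPM of 4T1 markers against 463 CPM in the rich spots, and those of lung A 220 against 84.2 CPM. Differences over these classes were not tested. In spots rich in alveolar type 2 markers, which were tested, 0 of 47 members were higher and 1, Cyp2c55, was lower (-1.57 ± 0.45, edgeR adjusted p = 0.0419), where 0.671% of 12375 genes were higher and 0.525% lower. The call was lost with the top 5% of spots, against all other spots, without the mouse as a block, by DESeq2 and in 4T1-poor spots (-0.27, edgeR adjusted p = 0.973). The 4T1 markers summed to 134 against 188 CPM in rich and poor spots of lung A and to 593 against 1748 CPM in lung B, and their part in the result was not tested. The 0 higher calls stand beside 6 members higher at an unadjusted p under 0.05, led by Ces1d, Fmo1 and Cyp4b1, and DESeq2 called 0 in either direction.

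Cyp1b1, higher in airway-rich spots, was also high in other marker classes, which were not tested. In fibroblast-rich lung spots it had 25.0 against 2.40 CPM in lung A and 57.5 against 11.7 CPM in lung B, and in spots rich in adipocyte markers 22.1 against 5.32 and 68.0 against 14.0 CPM. In endothelium-rich spots it was low, at 1.53 against 11.6 and 10.2 against 25.6 CPM. Aldh1a2 had 36.8 CPM in 4T1-rich and 8.67 CPM in 4T1-poor spots of lung B, but 1.61 and 3.06 CPM in lung A, on 2 and 16 UMIs. The classes overlap, since 1 spot can be rich in several marker sets.

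**Figure D4:**
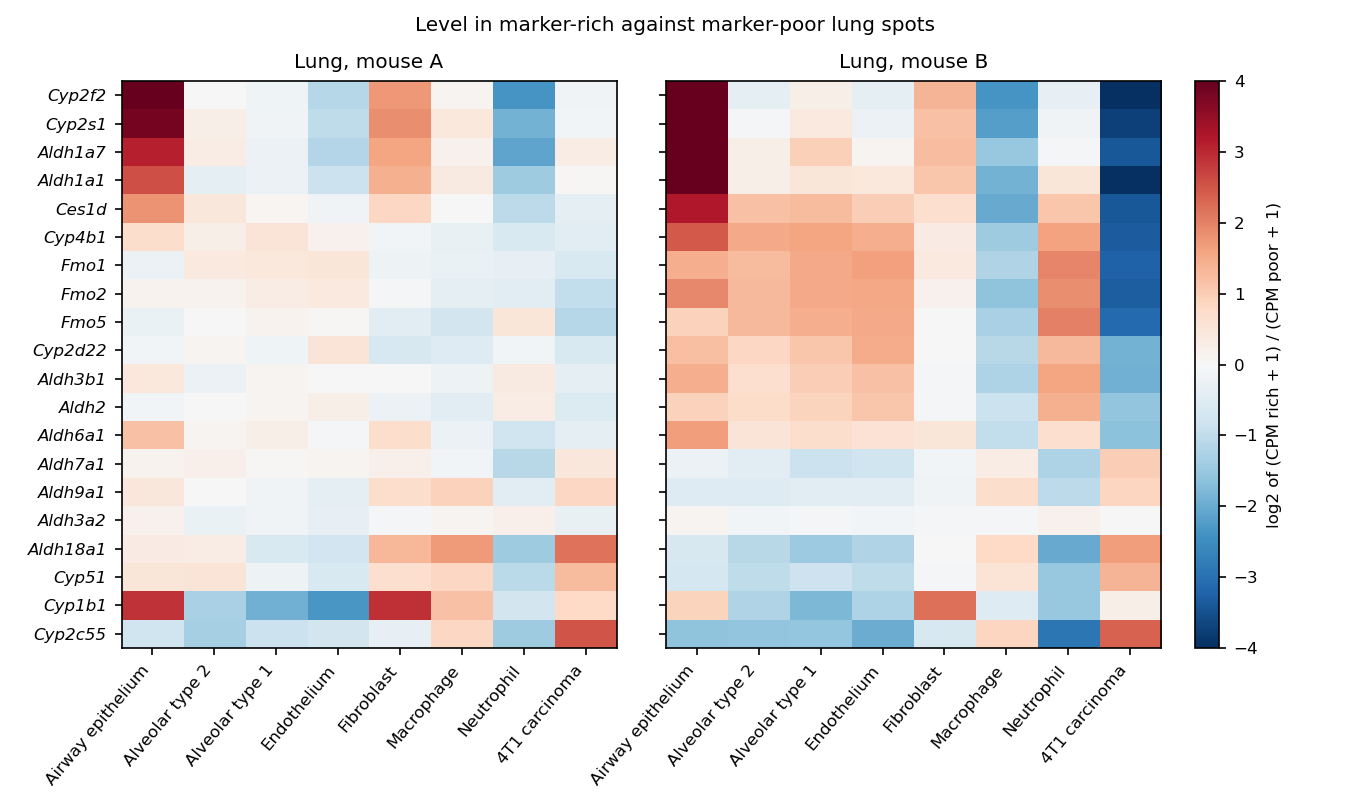
Log2 ratio of CPM plus 1 in marker-rich against marker-poor spots of each lung, for 20 members (rows) and 8 marker sets (columns), red for higher in rich spots and blue for lower, with values past the ends of the color scale drawn at its ends. Cyp2f2 to Ces1d are red for airway markers in both lungs, and Aldh18a1, Cyp51 and Cyp2c55 are red for 4T1 markers in both.

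Spatial clustering of single members was described by Moran's I, which is near 0 for a random layout and near 1 where neighboring spots are alike. Cyp2f2 had 0.53 in lung A and 0.60 in lung B and Cyp2s1 0.29 and 0.32. Fmo2 had 0.19 and 0.48, Cyp4b1 0.17 and 0.41, and Aldh2 0.10 and 0.30. Aldh3a2, level between tissues, had 0.02 and 0.09. Some members went the other way, among them Aldh6a1 (0.12 and 0.08). The depth of the section was higher in lung B, and its part in these values was not tested.

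**Figure D5:**
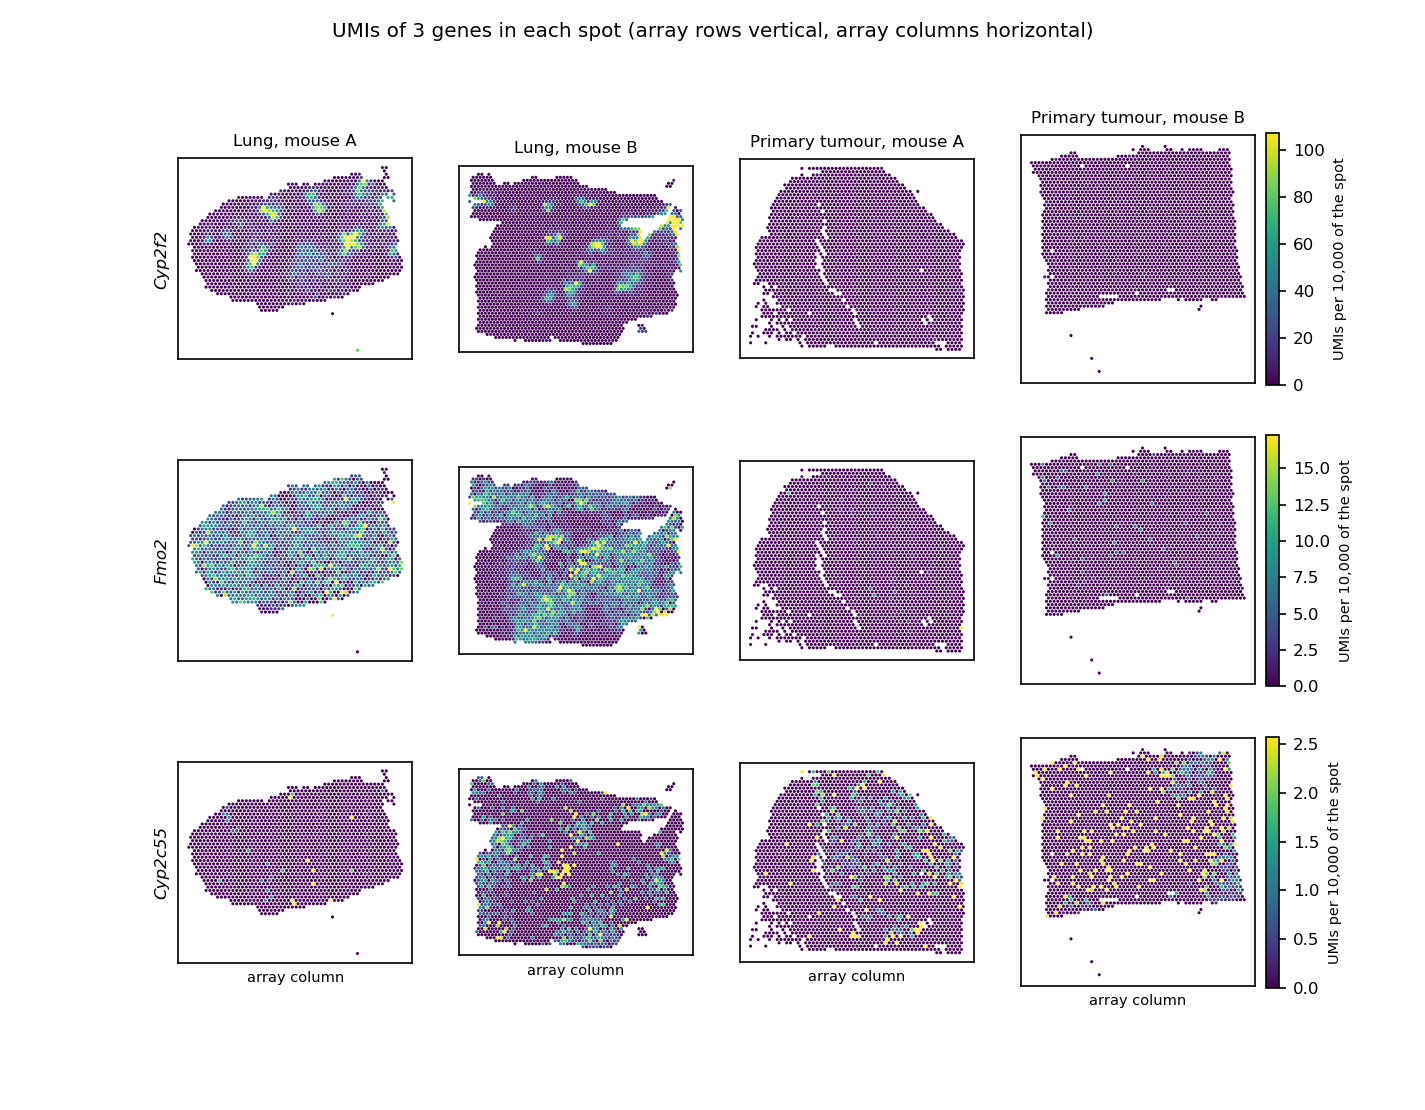
UMIs per 10000 UMIs of the spot for Cyp2f2, Fmo2 and Cyp2c55 (rows) in every kept spot of the 4 sections (columns), drawn at its array position, with the scale of each gene cut at its 99th percentile over the lung spots. Cyp2f2 forms small foci in both lungs, Fmo2 covers most of lung A and parts of lung B, and Cyp2c55 is seen in lung B and both PTs but in few spots of lung A.

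In lung spots rich in 4T1 markers, which reach 736 CPM of these markers in lung A and 2515 CPM in lung B, no member passed the edgeR test. The values of 3 members are given because they were higher in both mice and were picked after their values were seen. Cyp2c55 had 11.3 against 1.15 CPM in 4T1-rich and 4T1-poor spots of lung A and 69.3 against 12.7 CPM in lung B, a log2 fold change of 2.53 ± 0.35. Aldh18a1 had 50.8 against 10.5 and 90.8 against 27.8 CPM (1.79 ± 0.24), and Cyp51 had 62.9 against 25.7 and 134 against 52.0 CPM (1.16 ± 0.19). For these 3 the edgeR adjusted p was 0.0973, 0.0973 and 0.0990. Of the 50 members and 12764 genes tested none passed (0% called), although 11 members and 3610 genes had an unadjusted p under 0.05. The DESeq2 fit called 2 members higher (Aldh18a1 and Cyp2c55) and 10 lower of 50, where 3.64% of all genes were higher and 4.56% lower, so the higher share was near that of all genes. Without the filter on low counts, edgeR called these 2 and Cyp51 higher, 3 of 113 members against 2.43% of all genes.

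Fmo2, Cyp2f2 and Cyp4b1, none of them called by edgeR, had lower values in 4T1-rich spots, with a larger gap in lung B. Fmo2 and Cyp4b1 were among the 10 members that DESeq2 called lower, and Cyp2f2 was not. Fmo2 had 269 against 537 CPM in lung A and 60.3 against 597 CPM in lung B (-2.32 ± 0.65, edgeR adjusted p = 0.139). Cyp2f2 had 803 against 887 CPM in lung A and 27.7 against 1111 CPM in lung B (-2.87 ± 1.63, edgeR adjusted p = 0.311). Cyp4b1 had 273 against 371 and 40.5 against 417 CPM. In lung B the 4T1-rich spots thus held little of these members, and in lung A a level closer to that of the poor spots. The 4T1 markers summed to 736 CPM in the 4T1-rich spots of lung A and 2515 CPM in those of lung B. Both were below the 4698 and 5639 CPM of PT A and PT B, so these spots are not read as metastasis alone. Set against the whole PT sections, the 4T1-rich lung spots had Fmo2 at 269 and 60.3 CPM against 6.21 and 8.17 CPM (4.51 ± 0.71, edgeR adjusted p = 0.0906). Ces1d was at 78.2 and 10.3 CPM there, against 0 in the PTs. Of 55 members, 0 were called and 10 had an unadjusted p under 0.05, where 0.0214% of 14040 genes were called. With the mouse as a block, 6 members were higher in the lung spots (Aldh1a1, Ces1d, Cyp2f2, Cyp4b1, Fmo1 and Fmo2), where 2.28% of all genes were higher. DESeq2 called 5, where 2.19% were. Ces1d had 0 UMIs in both PTs, and Cyp2f2 and Aldh1a1 had 7 UMIs each in PT A. Such genes pass the filter on low counts mainly or only through the lung spots, so nothing is read from the counts of 6 and 5. Cyp2c55 had 11.3 and 69.3 CPM there against 33.9 and 45.3 CPM in the PTs (0.06 ± 0.65, edgeR adjusted p = 0.985).

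Inside the PTs, little of the family could be placed. In adipocyte-rich against adipocyte-poor spots, 0 of 113 members were called by edgeR, with 2 at an unadjusted p under 0.05 and 0 by DESeq2, where 0.0267% of 18704 genes were called. Only 1 adipocyte marker passed the receptor level in either PT. In fibroblast-rich against fibroblast-poor spots, 1 of 41 members was higher and 13 were lower, where 2.59% of 12890 genes were higher and 10.5% lower. Cyp51 was the higher member, with 42.7 against 31.9 CPM in PT A and 37.9 against 26.0 CPM in PT B (0.64 ± 0.23, edgeR adjusted p = 0.0443). The lower members, led by Cyp2b13, Ces3a, Cyp4a30b, Cyp2c29 and Fmo4, had 0 to 5 UMIs in the rich and 6 to 10 UMIs in the poor spots of PT A, and DESeq2 called 7 of the members lower, where 6.47% of all genes were. The poor spots were shallow, with a median of 623 against 11195 UMIs in PT A and 1604 against 11111 UMIs in PT B, and their median receptor level was 2.36 and 12.8 CPM against 0 and 1.49 CPM in the rich spots. With that level subtracted, 0 of 21 members tested were called, and with the top 5% of spots 0 of 24. Most of the lower members did not pass the filter in these fits, so their calls could not be kept there. Against all other spots 0 of 53 were called, with part of the lower members not tested. Without the block 0 of 41 were called.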

How the data were processed

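Spatial RNA libraries (10x Visium on FFPE tissue, mouse probe panel) were made by the authors from 4 sections, and Space Ranger with mm10 was used per the submitters' processing notes. The deposited matrices hold raw UMI counts per spot and gene. Total counts per section were 10890154 to 30240176 after removal of spots with 200 genes or fewer. Of the spot barcodes, 1342 occur in all 4 sections, since they mark array positions.

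UMI counts were summed per section, or per marker class and section, and tested with edgeR 4.0.16 in R 4.3.3 (quasi-likelihood test, TMM scaling, filterByExpr, Benjamini-Hochberg adjustment over all genes tested, threshold 0.05). SE is the absolute log2 fold change divided by the square root of F. DESeq2 1.42.0, total UMIs, no filter, other spot classes and each section left out were alternatives. Marker classes within a tissue were fitted with the mouse as a block, because rich and poor spots share a section. Lung against PT was fitted without it, as the main design, and with it as an alternative. Numbers pair the samples as the same animal. Deviations of sections of the same mouse correlated at -0.298 for lung against PT, and at 0.534 to 0.91 for classes within sections. Members named were the 20 highest in lung and the 15 highest in PT by mean CPM, the largest changes among called members and a textbook list, 40 in all. Cyp2b10 of that list was not among the genes measured. Members outside this rule (Fmo5, Aldh1l1, Ces1e, Ces1f, Cyp4f15, the cluster neighbors and the liver genes) and partner genes beyond the leading call of each subgroup (Por, Ephx1, Dhrs3, Lrat, Adh1, Aox3) were named after their values were seen. The members and lists were chosen with earlier results of these data known. Shared sequence was searched in 50-base windows of GENCODE transcripts, and motifs in RefSeq promoter windows. The values of 1 member are not reported here.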

Additional observations from a re-analysis of the deposited data

How the results depend on the processing

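Among log2 fold changes of single members, 345 values under the alternatives had the sign and call of the analysis as designed, 50 passed the threshold only under an alternative, 84 fell short of it and 3 changed sign. The 3 were Cyp2b23 (0.63) and Fmo9 (0.37) in fibroblast-rich PT spots when the score was a share of UMIs, and Cyp2s1 in 4T1-rich lung spots against PT (-0.029 without lung A, and -0.029 to 4.00 over all sections left out in turn). The cause was not tested. For lung against PT, 4 members were higher with total UMIs in place of TMM and 4 with the receptor level subtracted. With spots of over 1000 genes, 8 of 59 members were higher, beside 519 of 14572 genes. Fmo1, Aldh1a7 and Aldh6a1 were among those that lost their call there. Without the filter, 14 of 119 members were higher, beside 1666 of 19314 genes, and 23 were lower at an unadjusted p under 0.05. Members lower numbered 7 with DESeq2, 1 with the mouse as a block, and 1 in 4T1-poor lung spots, the last beside 1211 of 14515 genes. The 7 passed the receptor level in no section. Over all genes the block raised the calls from 963 higher and 176 lower to 1400 and 417, and DESeq2 gave 1436 and 1208. Leaving out a section gave 12 to 14 higher and 0 to 60 lower, the 60 without PT A. The crossed pairing of mice, added after seeing the data, gave 16 higher and 2 lower members, beside 1818 higher and 747 lower of 15267 genes, and 7 members higher in 4T1-rich lung spots against PT, beside 260 of 14040 genes. In airway-rich spots 0 were higher and 0 lower without the block, where 0 of 12694 genes were called. DESeq2 gave 0 lower members, beside 7 lower of all genes. In alveolar type 2-rich spots 0 were called against all other spots, 0 without the block and 0 by DESeq2. Over all genes these fits called 44 higher and 56 lower of 12953, 0 of 12375, and 10 higher and 17 lower of 12375. With the score as a share of UMIs 4 of 47 members were called, beside 146 higher and 125 lower of 12503 genes. In 4T1-rich spots DESeq2 called 12 members and edgeR without a filter 3. In fibroblast-rich PT spots, against 14 in the analysis as designed, 0 were called with the top 5%, against all other spots, without the block, with the score as a share or with the receptor level subtracted, 7 by DESeq2 and 61 without a filter, where 5227 of 19212 genes were lower. Most of the lower members were not tested with the top 5% or with the receptor level subtracted, and part of them not against all other spots. In 4T1-rich lung spots against PT, 6 were called with the block and 5 by DESeq2, beside 320 and 307 higher of 14040 genes. Nothing is read from these 2 counts, because of the filter on low counts. With 10 CPM as the level, 11 members were in lung alone. Sections could not be left out of the comparisons within sections, since 1 pair leaves no residual degrees of freedom. The level of receptor genes in PT B limits what can be seen there below 32.7 CPM.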
